A study of Mus musculus with 16 samples.

Results

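Mcph1 and Agap1 are protein-coding genes whose RNAs had some of the largest numbers of significant RNA-DNA pairs in PGK12.1 mouse embryonic stem cells (mESCs). RADIP joins RNA to nearby chromatin DNA in fixed cells with a bridge adaptor and then pulls the joined fragments down with an antibody, here against H3K27me3. Both groups were PGK12.1 mESCs fixed with 1% formaldehyde, and as labelled they differed in the antibody step alone: H3K27me3-RADIP libraries were made after it, and Input libraries from the same kind of lysate without it. Of each condition 8 libraries are labelled, although the study counts fewer biological replicates. The deposited data hold a single merged table of significant pairs for each condition, so no replicate error can be given. No test between conditions was run. Every row whose RNA was named Mcph1 or Agap1 was taken, which gave 11597 of 1305107 pairs in Input and 15124 of 1415135 pairs in H3K27me3-RADIP. These are 2 of the 12080 RNA names found in either table. They were chosen by their large numbers of pairs in these same tables, so pair numbers and ranks are given as a description.

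Unspliced RNA stays at its own gene while the polymerase is still copying it, and RNA that is kept on chromatin can also lie near DNA farther along the chromosome. H3K27me3 is the mark that Polycomb repressive complex PRC2 places on histone H3, and in embryonic stem cells it covers many silent developmental genes. Mcph1 encodes microcephalin, a BRCT-domain protein that restrains condensin II and takes part in the DNA damage response, and its loss causes primary microcephaly. Agap1 encodes a GTPase-activating protein for Arf proteins that binds the AP-3 adaptor and acts in endosomal traffic.

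In the mm10 (GRCm38) genome, Mcph1 (ENSMUSG00000039842.15) lies on the plus strand at chr8:18595131-18803189 and is 208 kb long. Agap1 (ENSMUSG00000055013.16) lies on the plus strand at chr1:89454806-89897617 and is 443 kb long. All RNA tags of both lay on the strand of the gene in both libraries. This follows from the authors' assignment of tags to genes, which took the strand into account. The strand keeps them apart from Angpt2, an angiopoietin gene on the minus strand within Mcph1, which had its own 14 pairs in Input and 18 in H3K27me3-RADIP. It cannot separate Agap1 from Gm28499, a non-coding RNA annotated within an Agap1 intron on the same strand, to which 8 and 23 pairs were assigned.

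Mcph1 had 5592 pairs in Input, 0.428% of the table (95% Wilson interval 0.417 to 0.440), and 7234 in H3K27me3-RADIP, 0.511% (0.50 to 0.523). Agap1 had 6005 pairs in Input, 0.460% (0.449 to 0.472), and 7890 in H3K27me3-RADIP, 0.558% (0.545 to 0.570). Both took a somewhat larger share of the pairs after the antibody step. The log2 ratio of the shares, H3K27me3-RADIP over Input, was 0.25 for Mcph1 (counting interval 0.20 to 0.30) and 0.28 for Agap1 (0.23 to 0.33). Over the 3313 RNAs with at least 50 pairs in both tables the median log2 ratio was -0.05, and 8.75% of them reached 0.5, which neither gene did. Over combinations of an RNA and a DNA bin of 25 kb that both tables list, the log2 ratio was 0.05 for Mcph1 and 0.38 for Agap1. The tables hold pairs and no RNA levels, so no number of contacts per RNA molecule can be given. Mcph1 kept rank 10 and Agap1 rank 7 in both libraries.

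Per length of the gene, Mcph1 had 26.9 pairs per kb in Input and 34.8 in H3K27me3-RADIP, while Agap1 had 13.6 and 17.8 pairs per kb. Mcph1 was thus the denser source, since a gene shorter than Agap1 gave nearly as many pairs. Among 188 RNAs with at least 1000 pairs in both tables and a known length, Mcph1 ranked 7 and Agap1 34 by pairs per kb in Input, where the median was 7.34. Other RNAs of long genes with many pairs moved in either direction. The log2 ratio of the share of pairs was 0.53 for Wwox, 0.31 for Msi2 and -0.15 for Exoc4. The RNAs ranked next to the 2 genes by pairs in Input had log2 ratios closer to 0, with -0.07 for Pvt1 and -0.02 for Ptprg beside Mcph1 and 0.06 for Jarid2 and 0.07 for Magi1 beside Agap1.

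The RNA tags came almost wholly from introns. Introns held 91.6% of the Mcph1 pairs in Input (90.8 to 92.3) and 92.4% in H3K27me3-RADIP (91.8 to 93.0), and 94.9% and 94.8% of the Agap1 pairs. The coding sequence of Mcph1 gave 4.10% and 3.69% of its pairs, and its 3' UTR gave 2.86% and 2.83%. Tags were spread over many positions, with 4435 distinct starts for Mcph1 in Input and 5446 in H3K27me3-RADIP, and 5136 and 6461 for Agap1. Some pairs repeated both tag positions of a pair already counted. They numbered 425 of the Mcph1 pairs in Input and 725 in H3K27me3-RADIP, and 381 and 668 of the Agap1 pairs. Without molecular identifiers such pairs cannot be told from amplified copies, and all intervals cover counting error only.

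Some single positions recurred with many DNA partners, and a few intronic ones are shown as examples of RNA sequence that was joined to DNA repeatedly. They are not a ranking. They were chosen after their pair numbers were seen and are read from the plus strand of mm10 at the coordinates given. The first of Mcph1 recurred in both libraries, the others of Mcph1 mainly in H3K27me3-RADIP, and the last is from Agap1.
Mcph1 chr8:18723609-18723633 (intron): gtagtttaccttcctttcttggtct
Mcph1 chr8:18716720-18716744 (intron): agagccatcctggtataagaagtca
Mcph1 chr8:18744337-18744361 (intron): cccccagggccacaggaactcagag
Agap1 chr1:89605560-89605584 (intron): aactgccaaggtccccacctcagtg

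The first Mcph1 tag had 11 pairs in Input, at 11 DNA positions in 10 bins, and 9 in H3K27me3-RADIP, at 8 DNA positions in 8 bins. The next went from 6 pairs to 11 and the last of Mcph1 from 1 pair to 10. The Agap1 tag had 11 pairs in 10 bins and 13 pairs in 10 bins. In H3K27me3-RADIP each of these tags was thus joined to DNA in at least 8 bins. A position in the coding sequence of Mcph1 that is not shown went from 12 pairs to 4. The most used positions of all lay at the ends of the genes. In the 3' UTR of Mcph1, 207 kb from its start, 1 position had 64 pairs in the Input table and 55 after the antibody step. In the 5' UTR of Agap1, 0.264 kb from its start, 1 position had 46 and 49 pairs.

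Along the gene, the profile of the RNA tags was nearly the same in the 2 libraries. When Mcph1 was cut into 10 equal parts, the sixth gave the most pairs, 16.8% in Input (15.9 to 17.8) and 17.7% in H3K27me3-RADIP (16.8 to 18.6). The first part gave the fewest, 3.79% and 3.37%. Agap1 had its most productive part at the start, with 14.3% (13.5 to 15.2) and 14.2% (13.5 to 15.0), and its other parts lay between 7.33% and 10.9% in Input and between 7.30% and 11.6% in H3K27me3-RADIP. The eighth part was the only one whose difference between the libraries had an interval without 0, in both genes. Its share was larger in H3K27me3-RADIP by 1.69 percentage points for Mcph1 (0.550 to 2.82) and by 1.18 for Agap1 (0.128 to 2.22).

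**Figure D1:**
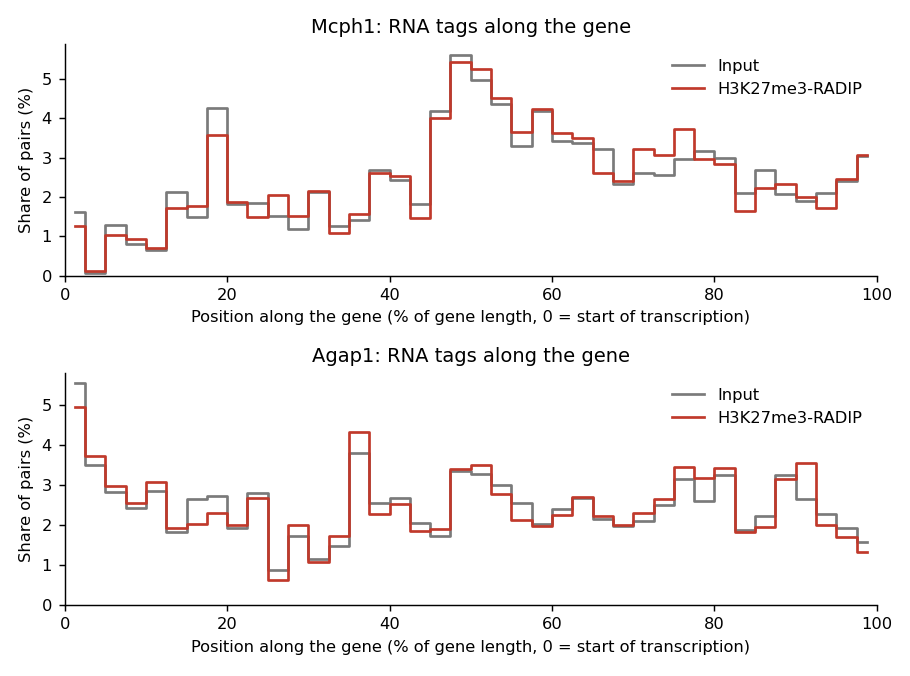
Share of the pairs of Mcph1 (top) and Agap1 (bottom) in percent against the position of the RNA tag, in 40 equal parts of the gene from its start to its end, for Input (grey) and H3K27me3-RADIP (red). The profiles of the libraries nearly coincide, with the highest values near the middle of Mcph1 and at the start of Agap1.

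The distance from the RNA tag to the DNA tag, taken between tag centres, set the genes apart. Over 1 Mb lay 1666 Mcph1 pairs in Input, 29.8% (28.6 to 31.0), and 3241 in H3K27me3-RADIP, 44.8% (43.7 to 46.0). For Agap1 there were 1603 such pairs in Input, 26.7% (25.6 to 27.8), and 2135 in H3K27me3-RADIP, 27.1% (26.1 to 28.1). The share thus moved by 15.0 percentage points for Mcph1 (13.3 to 16.7) and by 0.365 points for Agap1 (-1.13 to 1.85). Among the 190 RNAs with at least 1000 pairs in both tables, 86.3% had a larger share over 1 Mb in H3K27me3-RADIP, and the median difference was 2.98 points. By this difference Mcph1 ranked 2 and Agap1 154 of the 190. Both already reached far in Input, where they ranked 6 and 10 by the share over 1 Mb against a median of 5.08%. The RNAs next to them by number of pairs had similar Input shares over 1 Mb. These were 27.5% for Pvt1 and 23.0% for Ptprg beside Mcph1, and 26.3% for Jarid2 and 27% for Magi1 beside Agap1. In H3K27me3-RADIP the shares were 35.5% for Pvt1, 29.0% for Ptprg, 36.3% for Jarid2 and 38.3% for Magi1. The gains of these neighbours ran from 6.07 points for Ptprg to 11.2 points for Magi1. Each was thus above the median of 2.98 points and above the gain of Agap1, and below that of Mcph1.

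The size of the contrast between the genes depended on bins that only 1 table lists. Counted only over combinations of the RNA and a 25-kb bin that were listed in both tables, the share of Mcph1 pairs over 1 Mb differed by 3.41 points (1.73 to 5.09) and that of Agap1 by 0.137 points (-1.32 to 1.58). With bins of at least 20 pairs alone, the order turned, to 4.04 points (2.87 to 5.21) for Mcph1 and 9.77 points (8.70 to 10.8) for Agap1. With bins of at least 10 pairs the difference was 14.4 points for Mcph1 and 1.77 for Agap1. Such limits act on pairs in each table separately, so the libraries kept different bins. At 20 pairs Agap1 kept 4463 of 6005 pairs in Input and 6711 of 7890 in H3K27me3-RADIP. The turned order therefore does not compare the same bins, and no conclusion is drawn from it. These alternatives for the share over 1 Mb were chosen after the data were seen.

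**Figure D2:**
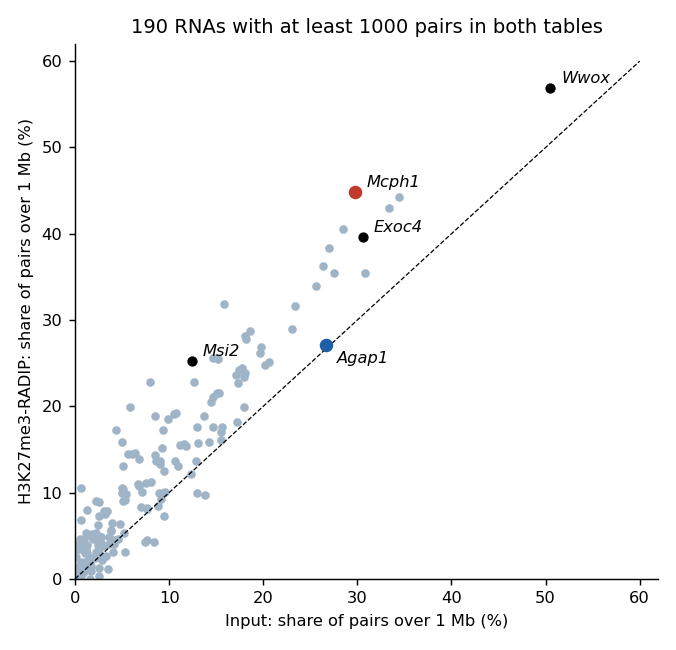
Share of pairs over 1 Mb in percent in Input (horizontal axis) and H3K27me3-RADIP (vertical axis) for the 190 RNAs with at least 1000 pairs in both tables, with equality as a dashed line and 5 RNAs labelled. Mcph1 went from 29.8% to 44.8% and lies well above the line, and Agap1, at 26.7% and 27.1%, lies close to it.

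For Mcph1 the gain over 1 Mb was matched by smaller shares in every nearer class. From 100 kb to 1 Mb lay 38.4% of its pairs in Input and 31.0% in H3K27me3-RADIP, and from 10 to 100 kb lay 24.5% and 19.0%. For Agap1 the class from 100 kb to 1 Mb held the most pairs, 45.7% (44.4 to 47.0) and 46.9% (45.8 to 48.0). Over 100 kb in all, the Mcph1 share went from 68.2% to 75.8%, by 7.69 points (6.12 to 9.26). The Agap1 share went from 72.4% to 73.9%, by 1.53 points (0.0411 to 3.02), and the interval held 0 with repeated positions counted once (-0.00444 to 3.09), with distance to the nearest gene end (-0.446 to 2.90) and over combinations listed in both tables (-0.0320 to 3.07). Of the 190 RNAs, 93.2% had a larger share over 100 kb in H3K27me3-RADIP, and the median difference was 5.28 points, so by this limit Mcph1 ranked 54 and Agap1 161. Over combinations listed in both tables the Mcph1 difference was 2.22 points, and with bins of at least 20 pairs the differences were 2.54 points for Mcph1 and 6.48 for Agap1.

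**Figure D3:**
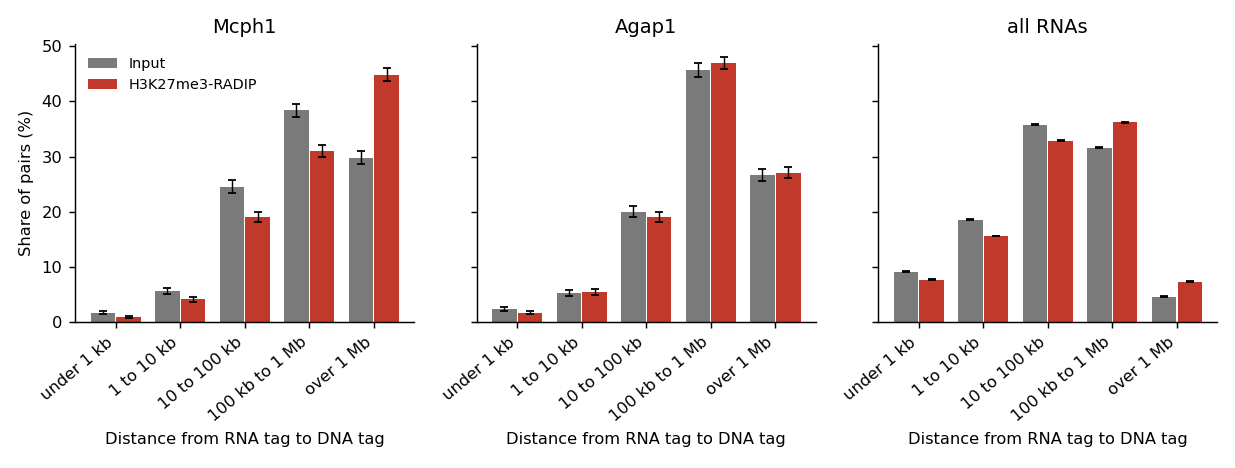
Share of pairs in percent in 5 classes of distance between the RNA tag and the DNA tag on the same chromosome, for Mcph1, Agap1 and all RNAs, in Input (grey) and H3K27me3-RADIP (red), with 95% Wilson intervals as error bars. For Mcph1 only the class over 1 Mb grew, from 29.8% to 44.8%, while no Agap1 class moved by more than 1.16 points.

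The median distance was 246 kb in Input for Mcph1 (quartiles 63.6 and 1354) and 597 kb in H3K27me3-RADIP (107 and 4090.0), a ratio of 2.43. Agap1 had 369.8 kb (81.1 and 1071) and 379.7 kb (92.4 and 1076), a ratio of 1.03. The ratio was above 1 for 92.6% of the 190 RNAs, with a median of 1.32, and Mcph1 ranked 2 and Agap1 171. The Mcph1 ratio was 1.90 with a q-value limit of 0.01 and 1.14 over combinations listed in both tables. With bins of at least 20 pairs it was 1.10 for Mcph1 and 1.45 for Agap1. The farthest Mcph1 pair on chromosome 8 spanned 14.5 Mb in Input and 27.5 Mb in H3K27me3-RADIP, and the farthest Agap1 pair on chromosome 1 spanned 44.0 and 64.4 Mb.

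Within Mcph1, tags from the last 5 of its 10 parts reached over 1 Mb more often than tags from the first 5. In Input the shares were 33.8% (32.2 to 35.4) and 23.9% (22.2 to 25.7), and in H3K27me3-RADIP they were 48.9% (47.4 to 50.4) and 38.4% (36.6 to 40.2). Intronic Mcph1 tags did so more often than exonic ones, with 30.6% (29.4 to 31.9) and 20.6% (17.2 to 24.5) in Input, and 45.5% (44.3 to 46.7) and 36.7% (32.8 to 40.8) in H3K27me3-RADIP. The last and the first 5 parts of Agap1 had the same order with smaller gaps, 28.8% and 24.6% in Input and 28.7% and 25.4% in H3K27me3-RADIP.

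By similarity of distance classes in both libraries (smallest summed absolute difference over 12 shares), the RNAs nearest to Mcph1 were Pvt1 (26.6 points), Fgfr2 (28.5) and Tenm4 (29.1), against a median of 126 over the 190 RNAs. The nearest to Agap1 were Pde4d (18.5), Ptprg (18.5) and Chchd3 (19.3), against a median of 85.0. Mcph1 and Agap1 differed from each other by 51.9 points.

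Of the Mcph1 pairs, 1810 had the DNA tag inside the own gene in Input, 32.4% (31.2 to 33.6), and 1756 in H3K27me3-RADIP, 24.3% (23.3 to 25.3). Of the Agap1 pairs, 2262 did so in Input, 37.7% (36.5 to 38.9), and 2784 in H3K27me3-RADIP, 35.3% (34.2 to 36.3). The share outside the own gene was thus larger in H3K27me3-RADIP, by 8.09 points for Mcph1 (6.52 to 9.67) and by 2.38 points for Agap1 (0.768 to 4.0). Among the 190 RNAs 91.6% had a larger share outside in H3K27me3-RADIP, with a median difference of 6.56 points. Over combinations listed in both tables the Mcph1 difference was 2.41 points. With bins of at least 20 pairs it was 2.79 points for Mcph1 and 9.20 for Agap1.

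The own-gene bins show how the pairs inside the gene were spread. All 10 bins that touch Mcph1 and all 18 that touch Agap1 were listed in both libraries. They held 80 to 269 Mcph1 pairs each in Input and 61 to 281 in H3K27me3-RADIP, and 76 to 178 and 105 to 188 Agap1 pairs. Scaled to the size of its table, 1 of the 10 Mcph1 bins and 13 of the 18 Agap1 bins were higher in H3K27me3-RADIP. Outside the gene the same held for 90 of the 165 Mcph1 bins and 108 of the 161 Agap1 bins listed in both tables. The share of such bins over all RNAs was not computed. Over all combinations listed in both tables the log2 ratio was 0.38 for Agap1 and 0.05 for Mcph1.

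Outside the gene, Input listed Mcph1 with 192 bins and H3K27me3-RADIP with 319, and 165 were in both (85.9% of the Input bins and 51.7% of the H3K27me3-RADIP bins). Agap1 was listed with 191 and 200 bins, and 161 were in both (84.3% and 80.5%). Most of the additional Mcph1 bins were thin. The 154 bins of Mcph1 listed in H3K27me3-RADIP alone, 1 of them on another chromosome, held a median of 10 pairs and at most 21. In that table its smallest listed bin had 8 pairs. Other Mcph1 bins outside the gene were nearly as thin. The median over all of them was 12 in both tables, and those listed in Input alone also had a median of 10. In Input the smallest listed Mcph1 bin had 9 pairs, so a bin with fewer pairs would not be seen there, and a bin that is not listed is not a bin without contacts. Over 5 Mb from the gene, Mcph1 had 43 bins in Input and 118 in H3K27me3-RADIP, with 28 in both, whereas Agap1 had 3 and 11, with 1 in both.

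**Figure D4:**
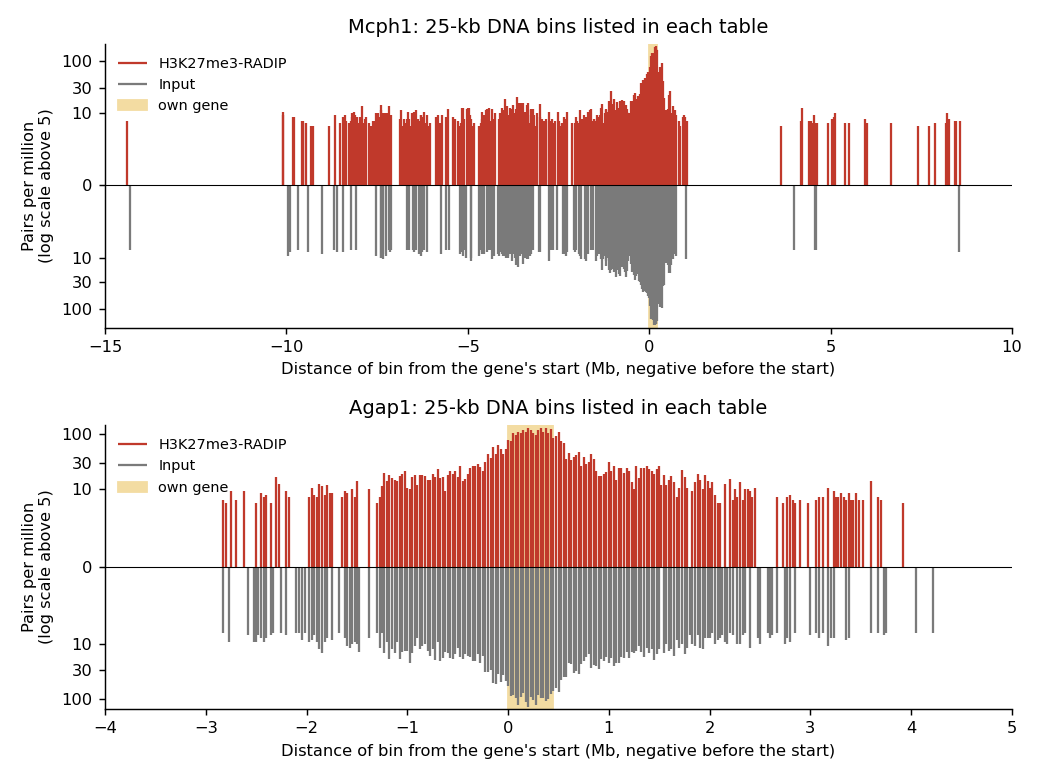
Each line is a 25-kb DNA bin listed for Mcph1 (top) or Agap1 (bottom), placed by its distance in Mb from the start of the gene, with its pairs scaled to the size of the table on an axis that is logarithmic above 5 (H3K27me3-RADIP upwards in red, Input downwards in grey). Bins beyond the axis limits are not drawn. Listed Mcph1 bins fill the 5 to 10 Mb before its start more densely in H3K27me3-RADIP, and the tallest Agap1 bins outside the gene lie just beyond its end.

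The listed long contacts of Mcph1 lay mostly on 1 side of the gene. Before its start lay 48.7% of its pairs in Input and 55.5% in H3K27me3-RADIP, 6.86 points more (5.11 to 8.59). Beyond its end lay 1061 and 1450 pairs, a share that moved by 1.07 points (-0.316 to 2.45). Over 2 Mb before the start there were 1120 pairs in Input, 20.0%, and 2288 in H3K27me3-RADIP, 31.6%. From 5 to 10 Mb before the start the pairs went from 402 to 1089, or from 7.19% (6.54 to 7.90) to 15.1% (14.2 to 15.9). Over 2 Mb beyond the end Mcph1 had 56 pairs in Input, 1.00% (0.772 to 1.30), and 358 in H3K27me3-RADIP, 4.95% (4.47 to 5.47). Between 1 and 2 Mb beyond the end neither table listed a pair. Only uniquely mapped tags outside blacklisted DNA were kept, and how much of the DNA on each side can be mapped uniquely was not tested.

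Agap1 had more pairs beyond its end than before its start, with 34.1% (32.9 to 35.3) and 28.2% (27.1 to 29.4) in Input and 37.3% (36.2 to 38.4) and 27.4% (26.5 to 28.4) in H3K27me3-RADIP. The share beyond the end grew by 3.17 points (1.56 to 4.77), most of it close to the gene. In the first 100 kb beyond the end Agap1 went from 326 pairs, 5.43%, to 504, 6.39%, or by 0.959 points (0.164 to 1.74). From 100 to 500 kb beyond the end it had 554 and 832 pairs, a difference of 1.32 points (0.315 to 2.31). Before the start of Agap1 the interval of the difference held 0 in each class up to 2 Mb, and from 2 to 5 Mb the pairs went from 163 to 166, a share that fell by 0.610 points.

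Csmd1 and Dlgap2, both very long genes, were the distant genes with the most Mcph1 pairs in total, which is not a rank per length. Csmd1, a gene for a large complement-regulating membrane protein, had 443 Mcph1 pairs in 36 bins in Input, 7.92% (7.24 to 8.66), and 613 in 50 bins in H3K27me3-RADIP, 8.47% (7.85 to 9.14). Dlgap2, which encodes a postsynaptic scaffold protein, had 256 pairs in Input, 4.58% (4.06 to 5.16), and 345 in H3K27me3-RADIP, 4.77% (4.30 to 5.28). For both the intervals of the libraries overlap. Agpat5, an acyltransferase gene 0.0431 Mb beyond the end, had 196 and 180 Mcph1 pairs, and Xkr5, a gene of the XK family of membrane proteins, had 100 and 89. These neighbours thus took a smaller share of the Mcph1 pairs after the antibody step, 2.49% against 3.51% for Agpat5.

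The Mcph1 pairs that were added to the list lay farther out. Myo16, an unconventional myosin gene 7.96 Mb before the start, had 18 Mcph1 pairs in 2 bins of the Input table, 0.322% (0.204 to 0.508), and 153 in 14 bins after the antibody step, 2.12% (1.81 to 2.47). Rasa3, a gene for a Ras GTPase-activating protein, went from 16 to 58 pairs, and Atp11a, a phospholipid flippase gene, from 11 to 39. On the other side, Ank1, the erythrocyte ankyrin gene, and Zmat4, a zinc finger gene, were not listed in Input and had 51 pairs each in 5 bins each in H3K27me3-RADIP. Myo16, Atp11a, Ank1 and Zmat4 were chosen after their values were seen. Such gene totals sum listed bins alone, so pairs in bins that are not listed are missing and the true differences may be smaller.

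When the listed bins of Mcph1 were joined into stretches wherever the gap was at most 1 Mb, almost all pairs fell in the stretch around the gene. It ran over 11.2 Mb (chr8:8475001-19650000) and held 98.8% of the Input pairs of Mcph1 and 94.7% of those in H3K27me3-RADIP. Another, 3.40 to 8.35 Mb beyond the end (chr8:22200001-27175000), held Ank1, Zmat4 and Plat and went from 37 pairs in 4 bins, 0.662% (0.480 to 0.911), to 287 pairs in 28 bins, 3.97% (3.54 to 4.44). Only 1 of its bins was listed in both tables. Among the Mcph1 bins outside the gene, and with pairs scaled to the size of each table, none of the 10 with the largest gain was listed in Input. This order takes a bin that is not listed as 0 pairs, so the true gains may be smaller and the order may differ. The bins were led by chr8:15550001-15575000 with 21 pairs and chr8:10650001-10675000 with 19. Bins in Rasa3 had 18, 18 and 17 pairs, the bin of Plat and Ap3m2 had 18, and that of the coagulation factor genes F7 and F10 had 17. Bins of the same genes also went the other way, since a Rasa3 bin with 13 pairs, 2 Csmd1 bins with 15 and 14 and a Dlgap2 bin with 13 were listed in Input alone.

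Among the Agap1 bins outside the gene, and with pairs scaled to the size of each table, the 4 that gained the most lay just beyond its end and carried Gbx2 and Asb18. Gbx2 encodes a homeobox factor that helps to set the border between midbrain and hindbrain. Its bin, chr1:89925001-89950000, went from 80 to 132 Agap1 pairs. Gbx2 itself fills only a small piece of that bin and had 13 Agap1 pairs, 0.216% (0.127 to 0.370), and 19, 0.241% (0.154 to 0.376), and these intervals overlap. The bins of Asb18, an ankyrin-repeat and SOCS-box gene, had 97 and 154 pairs, 58 and 108, and 51 and 98. Over the whole of Asb18, Agap1 had 183 pairs in Input, 3.05% (2.64 to 3.51), and 324 in H3K27me3-RADIP, 4.11% (3.69 to 4.57). A bin of Iqca went from 29 to 64 pairs and another from 52 to 50, and over the whole gene the shares of Iqca, 2.83% (2.44 to 3.28) and 3.11% (2.74 to 3.51), had overlapping intervals. The bin of Ackr3, an atypical chemokine receptor gene, went from 26 to 55. On the other side, a bin of the non-coding gene C030007H22Rik went from 46 to 91 pairs.

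Some Agap1 contacts were lost from the list, where gene totals again sum listed bins alone. Hdac4, a class IIa histone deacetylase gene 2.03 Mb beyond the end, had 56 Agap1 pairs, 0.933% (0.719 to 1.21), in Input and 17, 0.215% (0.135 to 0.345), after the antibody step, and Dgkd, a diacylglycerol kinase gene, had 49 and 28. Gigyf2, chosen after its values were seen, had 35 pairs in 4 bins in Input and was not listed in H3K27me3-RADIP. Bins in Usp40 with 18 pairs and in Dgkd with 15 were listed in Input alone. In the other direction, the bin of Ecel1, an endopeptidase gene, had 24 pairs in H3K27me3-RADIP and was not listed in Input.

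**Figure D5:**
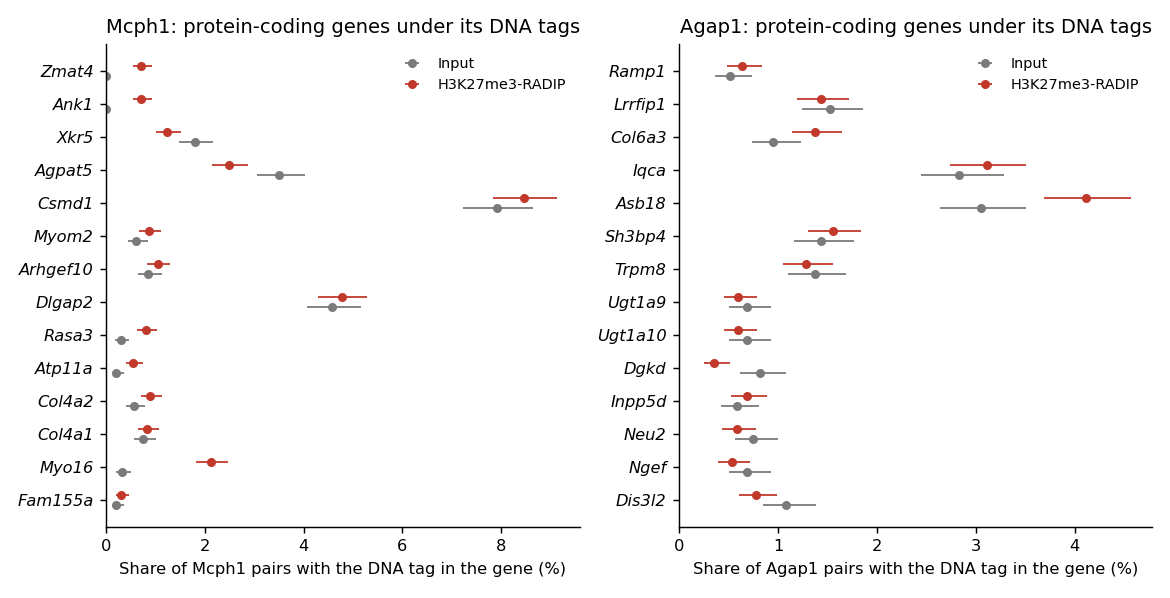
Share of all pairs of Mcph1 (left) or Agap1 (right) in percent whose DNA tag lay in a protein-coding gene, for the 14 genes with the most pairs that do not overlap the RNA's own gene, ordered by position along the chromosome from bottom to top, with 95% Wilson intervals. Points at 0 stand for genes not listed in that table. Shares count listed bins alone, and the intervals do not cover pairs in bins that are not listed. Myo16, Ank1 and Zmat4 stand out as higher in H3K27me3-RADIP for Mcph1, and Asb18 for Agap1. Agpat5 for Mcph1 and Dgkd for Agap1 were lower there, with intervals that do not overlap.

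Agap1 had few contacts far from the gene. The stretch around the gene ran over 7.08 Mb (chr1:86625001-93700000) and held 99.6% of its pairs in Input and 98.8% in H3K27me3-RADIP, and no pair lay 5 to 10 Mb from the gene on either side. A separate stretch 14.2 to 16.2 Mb before the start (chr1:73250001-75300000) went from 8 pairs in 1 bin, 0.133% (0.0675 to 0.263), to 76 pairs in 9 bins, 0.963% (0.770 to 1.2). Its bins include those of Wnt6 and Wnt10a, which encode Wnt ligands, with 9 pairs, and of Fev, a transcription factor of serotonergic neurons, and Cryba2, with 8 pairs in each table. All of its bins had 8 to 10 pairs and lay close to the smallest number listed. They were described after their values were seen.

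The listed bins of the 2 genes had a higher median GC content than all bins between their farthest listed ones. These were 1664 bins for Mcph1 and 3216 for Agap1, and most lay outside the stretch that held nearly all pairs. Listed bins were not compared with unlisted bins close to the gene, for GC content or for gene starts. The median GC content of the Mcph1 bins outside the gene was 43.0% for those listed in both tables, 43.5% for Input alone and 44.7% for H3K27me3-RADIP alone, compared with 41.1% over every bin between the farthest listed ones. For Agap1 the medians were 46.5%, 45.4% and 48.8%, compared with 39.9%. Over 1 Mb from the gene, Mcph1 bins had a median of 44.7% in both tables and 44.8% in H3K27me3-RADIP alone. For Agap1 these were 47.2% and 48.8%. A start of a protein-coding gene lay in 38.5% of the 39 Agap1 bins listed in H3K27me3-RADIP alone (24.9 to 54.1) in 20.0% of the 30 bins listed in Input alone (9.51 to 37.3) and in 24.8% of those listed in both (18.8 to 32.1), compared with 12.1% of every bin between the farthest listed ones. The Agap1 bins over 1 Mb from the gene listed in both tables had 38.3% (28.4 to 49.2), close to those in H3K27me3-RADIP alone, all of which also lay over 1 Mb away. For Mcph1 it was 18.3% of 153 bins in H3K27me3-RADIP alone (13 to 25.2), 25.9% of 27 in Input alone (13.2 to 44.7) and 15.2% of those in both (10.5 to 21.4), compared with 13.5%.

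Most of the outside bins were also contacted by another RNA, 112 of 192 for Mcph1 in Input (58.3%) and 211 of 319 in H3K27me3-RADIP (66.1%), and 128 of 191 (67.0%) and 156 of 200 (78.0%) for Agap1. The share over bins in general was not computed. The most frequent partner of Mcph1 was the Csmd1 RNA, in 28 of its bins in Input and 39 in H3K27me3-RADIP, and that of Agap1 was the Hdac4 RNA, in 58 and 79. These partners were chosen after their values were seen.

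RNAs of the genes in these bins were listed too. Asb18 RNA was not listed in Input and had 36 pairs in H3K27me3-RADIP, Ackr3 RNA was not listed in Input and had 9, and Iqca RNA had 22 and 53. Not all RNAs made near Agap1 had more pairs: Atg16l1 RNA, chosen after its value was seen, went from 190 to 127. No Gbx2 RNA was listed in either table. Beside Mcph1, Csmd1 RNA had 561 and 595 pairs (log2 ratio -0.03), Agpat5 RNA 51 and 74 (0.42) and Xkr5 RNA 21 and 27 (0.25).

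Few contacts with other chromosomes were listed, in tables from which the authors had already removed rare combinations as background. Agap1 had none listed in either library, and Mcph1 had none in Input. In H3K27me3-RADIP, Mcph1 had 12 such pairs, 0.166% of its pairs (0.0949 to 0.290), all in chr11:3150001-3175000, a bin in Sfi1, a gene for a centrin-binding protein of the centrosome (q-value 0.000399). They came from 11 RNA positions, all intronic, and 11 DNA positions. In that library 34 other RNAs contacted the same bin, among them Malat1 and Exoc4, and 13 did so in Input, so the bin was not particular to Mcph1. Over all RNAs the share of pairs between chromosomes was 0.345% in Input and 0.375% in H3K27me3-RADIP.

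The genes related in function to Mcph1 and Agap1 had far fewer pairs. Of 24 other primary microcephaly genes 23 had pairs, and 10 had at least 50 in both tables, with a median log2 ratio of -0.20. None of the 10 reached 0.5, and Cdk6 and Ankle2 were at or below -0.5, as were 16.3% of the 3313 RNAs. Genes that fell under 50 pairs in either table are not in these counts. Those with the most pairs were Wdfy3 with 732 and 697 pairs, Cdk5rap2, a gene for a centrosome protein, with 599 and 559, and Cit, the citron kinase gene, with 598 and 678. Per kb of gene, Wdfy3 and Cdk5rap2 had 3.09 pairs each in Input, compared with 26.9 for Mcph1. The 8 condensin subunit genes all had pairs but only 2 had at least 50 in both tables, led by Ncapd3 of condensin II with 243 and 199. Neither of the 2 passed 0.5 in either direction (median log2 ratio -0.45), a limit passed by 25.1% of the 3313 RNAs. The need for 50 pairs in both tables left out Smc4, a core condensin ATPase gene, which went from 92 to 40 pairs (log2 ratio -1.32), and Smc2, its partner, which went from 71 to 43 (-0.84).

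Of 22 other Arf GTPase-activating protein genes 21 had pairs, and 8 had at least 50 in both tables, of which none passed 0.5 in either direction (median log2 ratio -0.09), compared with 25.1% of the 3313 RNAs. Arap2, which went from 127 to 24 pairs (log2 ratio -2.52), was not among the 8 because of the 50-pair minimum. Smc2 and Arap2 are named because of their values. Asap1 had 1122 and 1123 pairs, Asap2 385 and 322, and Adap1 270 and 351. All 7 AP-3 adaptor genes had pairs in at least 1 table, 2 of them at least 50 in both (median log2 ratio 0.03, neither past 0.5 in either direction, against 25.1% of the 3313 RNAs), led by Ap3b1, which encodes a large subunit, with 1474 and 1579 (log2 ratio -0.02), or 7.11 pairs per kb in Input against 13.6 for Agap1.

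As a check of the labelled cells, 5 of 9 pluripotency genes were listed in Input and 6 in H3K27me3-RADIP, with summed pairs of 2981 and 3116, most from Esrrb (2388 and 2500), while Pou5f1, Nanog and Dppa4 were not listed. Of 6 differentiation genes 2 had pairs in both libraries, Gata4 with 29 and 41 and Gata6 with 9 and 15.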

How the data were processed

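H3K27me3-RADIP and Input pairs of PGK12.1 mESCs were read from 1 deposited table per condition, into which the authors had merged the libraries. The authors mapped the tags to mm10 with BWA (0.7.15-r1140 in the submitters' processing notes), kept unique alignments, removed blacklisted DNA and annotated RNA tags with GENCODE. The deposited tables give, for each RNA and 25-kb bin, a p-value and a q-value from the authors' adapted CHiCANE fit, and the authors kept q-values up to 0.1. The q-value column was used. Lines were counted here as pairs. Input held 1305107 pairs and H3K27me3-RADIP 1415135. Such lists hide bins below the limit, so no floor for a count of 0 is given.

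Members were the rows named Mcph1 or Agap1. The members, lists, comparison RNAs and limits were chosen with earlier results of these data known. Named RNAs were the members, Wwox, Exoc4 and Msi2, the RNAs next in rank in Input, the 3 with the closest distance classes, the 3 with the most pairs of each related list, and genes in the 10 bins with the most pairs or the largest gain or loss and in the farthest bins. Bins follow tag centres, and each gene and bin had 1 q-value. Genes were placed with a GENCODE release earlier than the authors' but of the same build, and tag sequences were read from the GRCm38 genome. Shares have 95% Wilson intervals, differences have Newcombe intervals and log2 ratios have counting intervals. These cover counting error only. Calculations used numpy 2.4.6, scipy 1.17.1 and pandas 2.3.3 under Python 3.11.15, figures matplotlib 3.10.9, and the calculations were tested on simulated tables. Alternatives were a q-value limit of 0.01, repeated pairs counted once, other totals, TMM, gene identifiers, bins in both tables, bins of at least 20 pairs, and other definitions of distance and gene border.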

Additional observations from a re-analysis of the deposited data

How the results depend on the processing

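No paired analysis was possible because the libraries of each condition were merged into 1 table and no library has values of its own. For the same reason no library could be left out in turn. Of 54 alternatives over 10 results, none reversed a direction, and 34 stayed within the counting interval of the reported value (for median distances, within 10% of the ratio). TMM over shared protein-coding RNAs gave log2 ratios of 0.34 for Mcph1 and 0.36 for Agap1. Combinations listed in both tables gave 0.05 for Mcph1 and 0.38 for Agap1. They also gave Mcph1 differences of 2.41 points outside the own gene, 2.22 over 100 kb and 3.41 over 1 Mb, and a ratio of median distances of 1.14. Bins of at least 20 pairs gave Mcph1 2.79, 2.54 and 4.04 points and a ratio of 1.10. For Agap1 they gave 9.20, 6.48 and 9.77 points and a ratio of 1.45. That limit acted in each table separately, so the libraries kept different bins. Distance to the nearest gene end gave 10.7 points over 100 kb for Mcph1. A q-value limit of 0.01 gave a Mcph1 ratio of 1.90, and means in place of medians gave ratios of 1.75 for Mcph1 and 1.15 for Agap1. The causes were not tested. The bins of Mcph1 listed in H3K27me3-RADIP alone held a median of 10 pairs, against 12 over all its bins outside the gene in that library.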
